A study of Homo sapiens with 32 samples.

Results

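The comparison set RNA from human RPE-1 cells 15 h after serum addition against RNA from the same line 5 h after serum addition, with serum present on both sides. Its members were the 8 RNA-seq libraries that the labels place at these times, 4 at 15 h and 4 at 5 h, out of 32 libraries in the series. The other libraries were RNA at 10 h and at 0 h and ribosome-protected fragments (Ribo-seq footprints) at all 4 times. RPE-1 is an established line of retinal pigment epithelial cells, labelled WT in all samples, and all cells had first been kept without serum for 18 h. Total RNA was depleted of ribosomal RNA and counted per gene, with 4 biological replicates at each time. The question was how the transcriptome of cells early in their return to growth differs from that of cells several hours further on.

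Cells without serum leave the cell cycle. Serum growth factors first switch on immediate-early and inflammatory genes through ERK, SRF and NF-kB, and later cyclin D and cyclin E kinases inactivate RB and release E2F, which drives the genes of DNA replication. Genes of mitosis follow, under B-MYB, FOXM1 and the MuvB complex that binds CHR elements, and replication-dependent histone mRNAs, which lack a poly(A) tail, are made while DNA is copied. DNA content was not measured in the data used here, and in bulk samples a change in the share of cells in a phase and a change in RNA per cell cannot be told apart.

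The RNA libraries held between 595851 and 1107470 counts each, with a median of 1037769 at 15 h and 898099 at 5 h. A gene's level is given as CPM, its counts relative to the library total after TMM scaling, and values per library are listed in the order of replicates 1 to 4. Log2 changes are 15 h over 5 h, with standard errors (SE), from edgeR's quasi-likelihood test. Adjusted p-values are its Benjamini-Hochberg values over all 8775 genes tested, and a gene was called when this value was below 0.05. The replicate 2 libraries stood apart most often. In 444 groups of 4 values examined, 44 had 1 library far from the other 3. Of these, 12 were replicate 2 at 15 h and 10 were replicate 2 at 5 h. Without replicate 2 at 15 h, 1434 genes were called higher and 1185 lower, and without replicate 2 at 5 h the numbers were 1282 and 1115. The labels call the 4 samples of a time biological replicates and do not say how their cultures were kept apart.

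RNA at 15 h differed widely from RNA at 5 h. Of 8775 genes tested, 1298 (14.8%) were called higher and 1553 (17.7%) lower at 15 h. The counts of calls in the gene lists below are to be read beside these shares. The rises were larger than the falls: 215 called genes were more than 8-fold higher and 26 more than 8-fold lower, and 739 and 624 passed 2-fold. The median log2 change of all genes tested was -0.10, and it was -0.18 when libraries were scaled by their totals alone, which gave 1152 genes higher and 1880 lower. With size factors of the DESeq type the numbers were 1448 and 1311, and with only the 8 libraries in the fit 1563 and 1207, so which direction had more calls depended on the scaling. No called gene changed sign under any of these settings. In 2858 genes (32.6%) the libraries of the 2 times did not overlap. The genes named below as the 15 largest rises and the 15 largest falls were taken from these, so their lack of overlap was set by that choice.

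**Figure D1:**
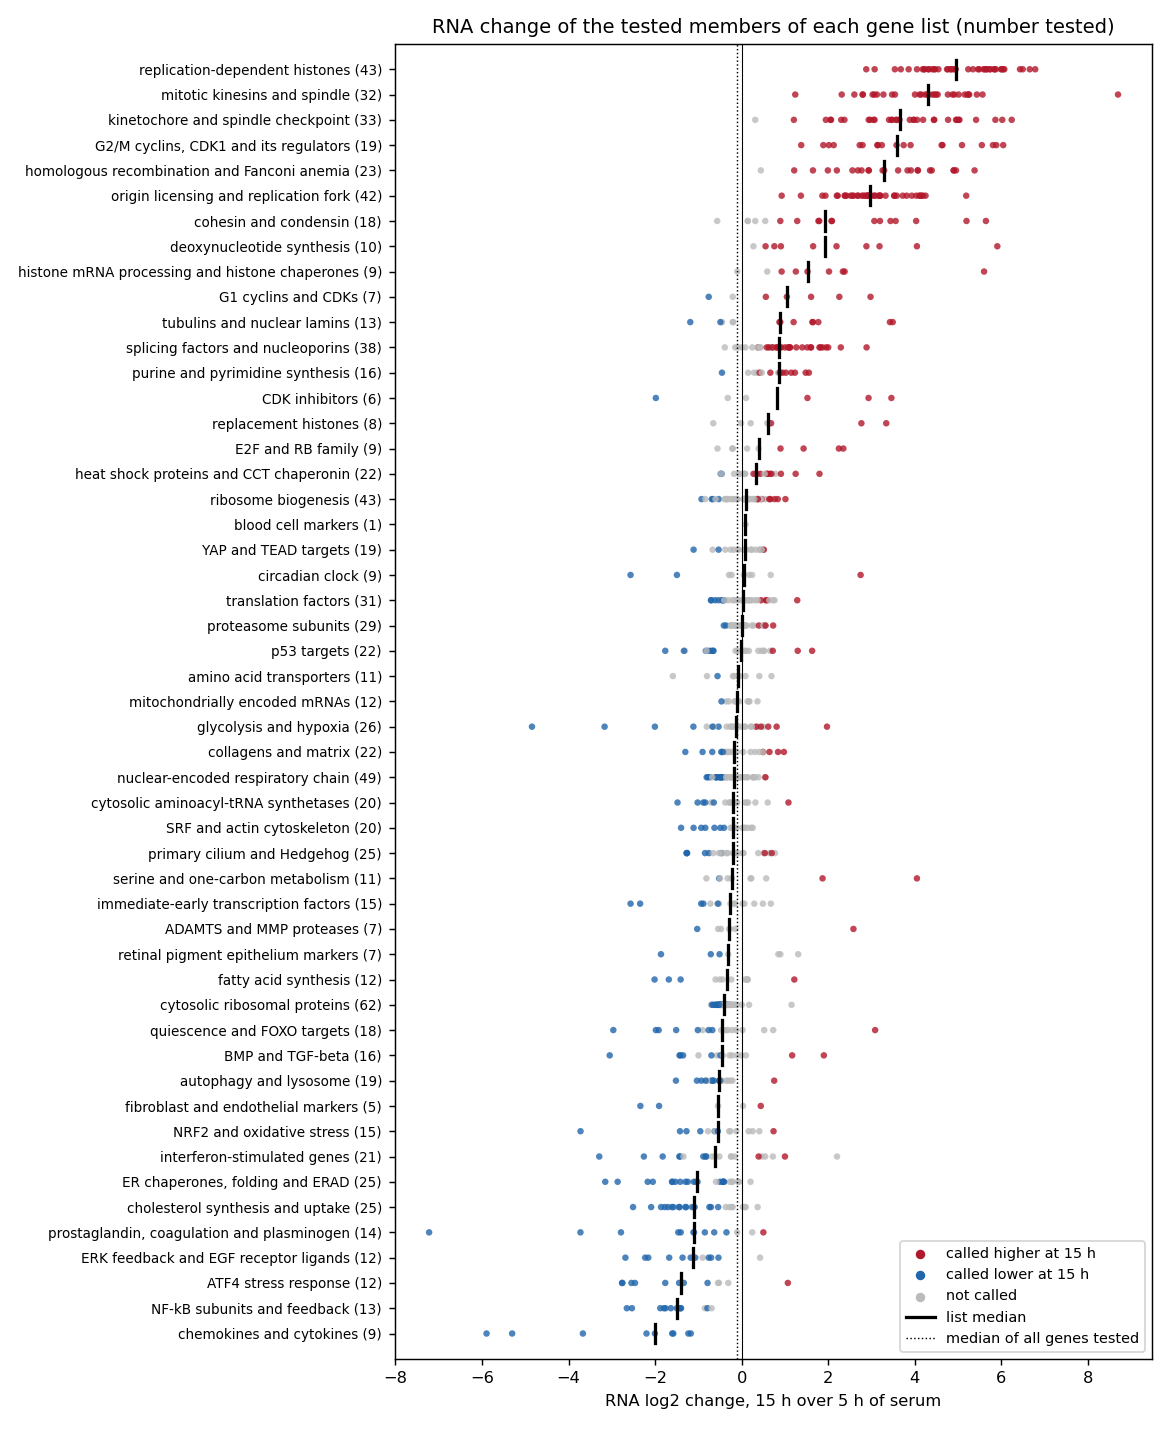
RNA log2 change at 15 h over 5 h (horizontal axis) of each tested member of 51 gene lists (rows, with the number tested). Points are genes, coloured by the edgeR call, black bars are list medians and the dotted line is the median of all genes tested (-0.10). Histone, mitotic, recombination and replication lists sit furthest right, with medians of 4.94 for replication-dependent histones, 3.29 for homologous recombination and 2.97 for replication genes, and chemokines and cytokines furthest left, with a median of -2.0.

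The largest block of change was in replication-dependent histone genes, which encode the core and linker histones that package new DNA. All 43 tested members of the list rose, with a median log2 change of 4.94 and a range of 2.88 to 6.78. Together the 56 genes of the list in the table took 8.75, 7.92, 9.31 and 8.55% of all counts in the 15 h libraries, against 0.375, 0.409, 0.344 and 0.34% in the 5 h libraries. Every 15 h library lay far above every 5 h library. The mean share was 8.63 ± 0.572% at 15 h and 0.367 ± 0.0322% at 5 h (SD, n = 4 each), a difference of 8.27 percentage points and a ratio of 23.5 (2-sided exact permutation test, p = 0.0286, the smallest that 4 against 4 libraries can give). Before serum (0 h) the mean share was 0.779%, it was lowest at 5 h, and by 10 h it had reached 2.17%.

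**Figure D2:**
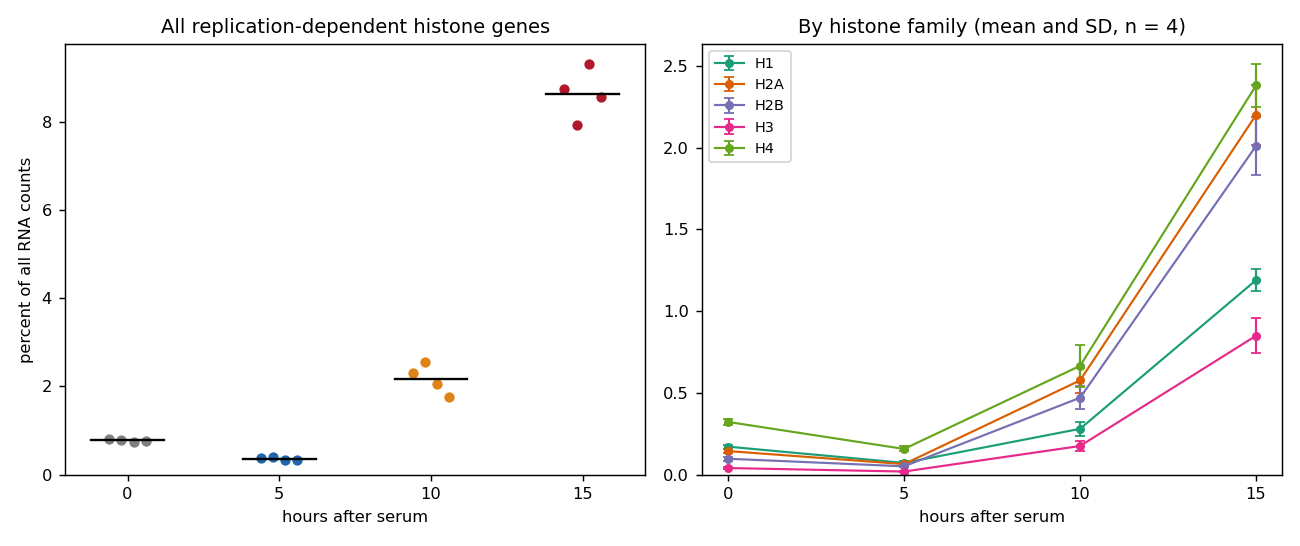
Share of all RNA counts (vertical axes, percent) taken at 0, 5, 10 and 15 h after serum by the 56 replication-dependent histone genes matched by symbol. Left, each library as a point with the group mean as a bar. Right, the mean and SD (n = 4) by histone family. All families are lowest at 5 h and highest at 15 h, when H4 genes take 2.38% and H3 genes 0.85% of counts.

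All 5 families took part. The H4 genes held 2.38 ± 0.129% of counts at 15 h and 0.158 ± 0.0156% at 5 h. The H2A genes held 2.2 ± 0.181% and 0.0654 ± 0.00397%, and the H2B genes 2.01 ± 0.18% and 0.0517 ± 0.00313%, at 15 h and at 5 h in that order. The H1 genes, which encode linker histones, held 1.19 ± 0.0682% at 15 h and 0.0726 ± 0.0126% at 5 h, and the H3 genes 0.85 ± 0.108% at 15 h and 0.0198 ± 0.00123% at 5 h (SD, n = 4 for each). Median log2 changes by family ran from 4.28 for 6 tested H4 genes to 5.70 for 14 tested H2B genes. Many of these genes are near-identical copies, so counts of single members are uncertain. The sums are over 56 genes matched by symbol. H3C2, H3C3, H3C12, H2AC18 and H2AC19 were not found by symbol, and identifiers without a symbol are outside the sums. The shares may therefore be too low, and the families are not ranked.

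Among single histone genes, H1-5, a linker histone gene, had 2520, 2980, 3020 and 2520 CPM at 15 h, against 24.2, 34.1, 17.7 and 22.7 CPM at 5 h. Its log2 change was 6.78 (SE 0.21, edgeR adjusted p = 5.59e-17), and no 15 h library came near a 5 h library. As one of the 15 largest rises, H1-5 was picked from genes without overlap. H2BC11, a core histone H2B gene, had 5610, 4580, 6510 and 6150 CPM at 15 h, against 124, 95.3, 107 and 106 CPM at 5 h, a log2 change of 5.73. H2AC14 had 578, 497, 542 and 624 CPM at 15 h, against 8.63, 3.01, 5.89 and 5.41 CPM at 5 h, a log2 change of 6.66. The fitted changes of these 3 genes were 53-fold or more. The other histone genes among the 15 largest rises were H2AC16 (90.1-fold), H2BC3 (86.3-fold), H2BC17 (67.1-fold), H2BC14 (66-fold), H2AC4 (64.3-fold) and H2BC13 (63.8-fold). Identifiers ENSG00000274267 (121-fold) and ENSG00000278272 (63-fold) also belong to the 15 largest rises. The sources used here give them no symbol, so they are counted in no list or family, and whether they are histone genes was not determined.

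Promoters of histone H2A and H2B genes are known to carry an octamer bound by OCT1, so the 250 bases before the start of H2AC14 are shown, the listed histone gene with the largest rise among 21 that hold the octamer ATGCAAAT or its reverse complement there. The sequence is from RefSeq on GRCh38.p14, chr6:27814778-27815027, minus strand, 5′ to 3′, with the octamer in capitals.
H2AC14: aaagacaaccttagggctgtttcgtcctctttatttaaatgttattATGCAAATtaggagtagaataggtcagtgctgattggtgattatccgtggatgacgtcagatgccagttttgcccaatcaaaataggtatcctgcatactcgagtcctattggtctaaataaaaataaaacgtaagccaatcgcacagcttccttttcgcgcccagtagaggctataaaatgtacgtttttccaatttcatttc
The octamer lies 204 to 197 bases before the start. In a window that also takes in the 50 bases after the start it was found in 53.8% of 39 histone promoters, in 78.6% of 14 H2B promoters, and in 1.45% of the 7290 promoters of tested genes. This is a match of letters only.

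Histones that are made outside replication, and the factors that process and deposit histones, changed less. Of 8 replacement histone genes 3 rose, with a median log2 change of 0.61: H2AX, which marks DNA breaks (3.34), H2AZ1 (2.77) and MACROH2A1 (0.68). Of 9 genes of histone mRNA processing and histone chaperones 7 rose. ASF1B, a histone chaperone, had 79.8, 101, 95.5 and 97.9 CPM at 15 h, against 0, 0, 3.53 and 3.25 CPM at 5 h, and CHAF1A and CHAF1B, subunits of the CAF-1 assembly factor, rose 5.2-fold and 5.06-fold.

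Genes listed for origin licensing and the replication fork rose without exception, though the list leaves out some subunits, among them ORC4 and POLE4. All 42 tested members were called higher, with a median log2 change of 2.97 and a range of 0.92 to 5.19, beside 14.8% of all genes tested. MCM2, a subunit of the replicative helicase, had 492, 667, 634 and 507 CPM at 15 h, against 81.1, 62.2, 48.3 and 61.7 CPM at 5 h (log2 change 3.20, SE 0.17, edgeR adjusted p = 1.52e-12). PCNA, the sliding clamp, had 1500, 988, 1340 and 1500 CPM at 15 h, against 162, 88.2, 126 and 159 CPM at 5 h, a log2 change of 3.33. CDC45, the helicase activator, had 201, 194, 216 and 230 CPM at 15 h, against 0, 3.01, 5.89 and 11.9 CPM at 5 h, a log2 change of 5.19. In each of these genes all 15 h libraries were above all 5 h libraries.

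The complexes of the fork, grouped after the values had been seen, rose to different degrees. All 6 MCM2-7 subunits rose, from 2.38 for MCM6 to 3.53 for MCM7 on the log2 scale. The origin recognition complex was split: 4 of 6 subunits rose, with ORC1 at 4.25 and ORC4 at -0.03. The 3 tested GINS subunits had a median of 3.93, the 5 subunits of the clamp loader replication factor C 2.78, and the 4 of DNA polymerase alpha-primase 3.0. DNA polymerase delta (3 tested), DNA polymerase epsilon (3 of 4 called) and replication protein A (3 tested) had medians of 2.42, 2.07 and 1.94. The loading factor CDC6 had 295, 284, 280 and 285 CPM at 15 h, against 38, 12, 20 and 32.5 CPM at 5 h, an 11.5-fold rise, and ORC6 rose 18.2-fold.

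RFC3, a clamp loader subunit that rose by 4.16 on the log2 scale, had the largest change among 11 listed replication genes with an E2F site in the 250 bases before the start, and those bases are shown because E2F is the known regulator of this group. The sequence is from RefSeq on GRCh38.p14, chr13:33817899-33818148, plus strand, 5′ to 3′, with the E2F site in capitals.
RFC3: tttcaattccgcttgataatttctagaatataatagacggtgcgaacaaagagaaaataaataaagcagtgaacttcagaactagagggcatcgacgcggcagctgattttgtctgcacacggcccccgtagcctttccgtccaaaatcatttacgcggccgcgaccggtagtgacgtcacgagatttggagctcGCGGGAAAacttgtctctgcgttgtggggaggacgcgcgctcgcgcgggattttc
The site lies 55 to 48 bases before the start. In a longer window that also takes in the 50 bases after the start, E2F letters were found in 45.7% of 35 promoters of this list and in 6.01% of the 7290 promoters of tested genes.

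Enzymes that make deoxynucleotides rose with the fork. Of 10 tested genes 9 were called higher, with a median log2 change of 1.92. RRM2, the regulated subunit of ribonucleotide reductase, had 148, 164, 110 and 110 CPM at 15 h, against 1.73, 4.01, 0 and 2.16 CPM at 5 h, a log2 change of 5.91 (SE 0.36, edgeR adjusted p = 1.09e-11). RRM1, its large subunit, rose by 3.19, and TYMS, which makes thymidylate, by 4.05. Purine and pyrimidine synthesis moved less: 9 of 16 genes rose, with PAICS at 1.55, PFAS at 1.48 and GMPS at 1.23, and 1 fell, ADSS2 at -0.45, a call that was lost under 11 of 14 alternative settings.

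Homologous recombination and Fanconi anemia genes, which repair breaks and crosslinks at forks, rose in 22 of 23 cases, with a median log2 change of 3.29. UBE2T, the ubiquitin-conjugating enzyme of the Fanconi pathway, had 367, 213, 288 and 306 CPM at 15 h, against 6.9, 2.01, 9.42 and 9.74 CPM at 5 h, a log2 change of 5.38. EXO1, an end-resecting nuclease, had 241, 187, 216 and 243 CPM at 15 h, against 19, 5.01, 4.71 and 3.25 CPM at 5 h, with replicate 1 the high library at 5 h, and its log2 change was 4.95. XRCC2, a gene of homologous recombination, had 117 counts over the 15 h libraries and 3 over the 5 h libraries, a ratio of 34.8 (95% exact interval 11.6 to 171, counting error only). PALB2 was the member not called.

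Genes of mitosis rose as well. All 32 tested kinesin and spindle genes were called higher, with a median log2 change of 4.30, as were 32 of 33 kinetochore and checkpoint genes (median 3.65, with FZR1 the exception) and all 19 genes of G2/M cyclins and CDK1 regulation (median 3.58). RNA of replication and RNA of mitosis were thus both higher at 15 h, and the phase of the cells was not measured. CCNA2, the cyclin of S and G2 phases, had 371, 266, 334 and 401 CPM at 15 h, against 3.45, 4.01, 4.71 and 7.57 CPM at 5 h, a log2 change of 6.04 (SE 0.28, edgeR adjusted p = 6.12e-14). CDK1, the mitotic kinase, had 606, 273, 445 and 509 CPM at 15 h, against 6.9, 6.02, 7.06 and 11.9 CPM at 5 h, a log2 change of 5.81. TOP2A, the topoisomerase that untangles sister chromatids, had 1960, 1650, 1600 and 1990 CPM at 15 h, against 36.2, 18, 43.6 and 26 CPM at 5 h, a log2 change of 5.88. The 15 h and 5 h libraries were separated by more than 20-fold in each of these genes, of which CCNA2 was picked from genes without overlap.

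CCNB1, the cyclin that triggers mitosis, rose less: it had 608, 417, 528 and 660 CPM at 15 h, against 75.9, 46.1, 63.6 and 68.2 CPM at 5 h, a log2 change of 3.14. KIF20A, a kinesin of cytokinesis, had 261, 207, 288 and 327 CPM at 15 h, against 8.63, 14, 10.6 and 11.9 CPM at 5 h, a log2 change of 4.53. MKI67, the source of the Ki-67 proliferation antigen, had 106, 150, 105 and 63.5 CPM at 15 h, against 5.18, 4.01, 4.71 and 3.25 CPM at 5 h, a log2 change of 4.62. None of these genes had overlapping libraries. CEP55, an abscission factor, rose 47.3-fold and KIFC1, a minus-end kinesin, 43.2-fold.

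The kinetochore gave some of the largest ratios. NUF2, a subunit of the NDC80 complex that holds microtubules, had 65.1, 32.7, 64.5 and 75 CPM at 15 h and no count in any 5 h library, so it was at least 65.1-fold higher (against 3 counts over the 5 h group). NDC80 itself had 352, 208, 247 and 341 CPM at 15 h, against 8.63, 7.02, 0 and 4.33 CPM at 5 h. SGO2, a protector of centromeric cohesion, had 296 counts at 15 h and 3 at 5 h, a ratio of 88 (95% exact interval 29.8 to 429), and PIMREG had 112 and 1, a ratio of 99.9 (95% exact interval 17.6 to 3980). TTK, the checkpoint kinase, rose by 6.02 on the log2 scale. All 4 genes of the chromosomal passenger complex rose, from 3.28 for INCENP to 5.26 for AURKB.

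Chromosome structure followed the same direction. Of 18 cohesin and condensin genes 13 were called higher, with a median log2 change of 1.93. Condensin had a median of 3.32 over 8 subunits, led by NCAPH at 5.19, and the 4 core cohesin genes tested had a median of 1.93. ESCO2, which acetylates cohesin, rose by 5.64 and SMC2 by 4.03. Of 13 tubulin and nuclear lamina genes 8 rose and 2 fell. LMNB1 had 409, 367, 352 and 428 CPM at 15 h, against 32.8, 17, 38.9 and 49.8 CPM at 5 h (log2 change 3.49), TMPO rose by 3.43 and LMNB2 by 1.77. LMNA, the A-type lamin, was at -0.49 and TUBB3 at -1.19, and the call of LMNA was lost under 10 of 14 alternative settings.

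TOP2A had the largest change among 8 listed G2/M genes with a CHR element in the 250 bases before the start, and those bases are shown because the CHR is the known element of mitotic promoters. The sequence is from RefSeq on GRCh38.p14, chr17:40417897-40418146, minus strand, 5′ to 3′, with both CHR matches in capitals.
TOP2A: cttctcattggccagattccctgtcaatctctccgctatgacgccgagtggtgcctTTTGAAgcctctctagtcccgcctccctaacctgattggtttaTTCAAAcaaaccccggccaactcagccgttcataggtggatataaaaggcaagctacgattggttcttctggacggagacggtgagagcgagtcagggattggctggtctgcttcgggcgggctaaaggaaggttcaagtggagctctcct
The first match lies 194 to 189 bases before the start. In the longer window with the 50 bases after the start, CHR letters were found in 82.1% of 28 kinesin and spindle promoters, 56.2% of 16 G2/M promoters and 56% of 25 kinetochore promoters, against 11.2% of the 7290 promoters of tested genes and 5.71% of 35 replication promoters.

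**Figure D3:**
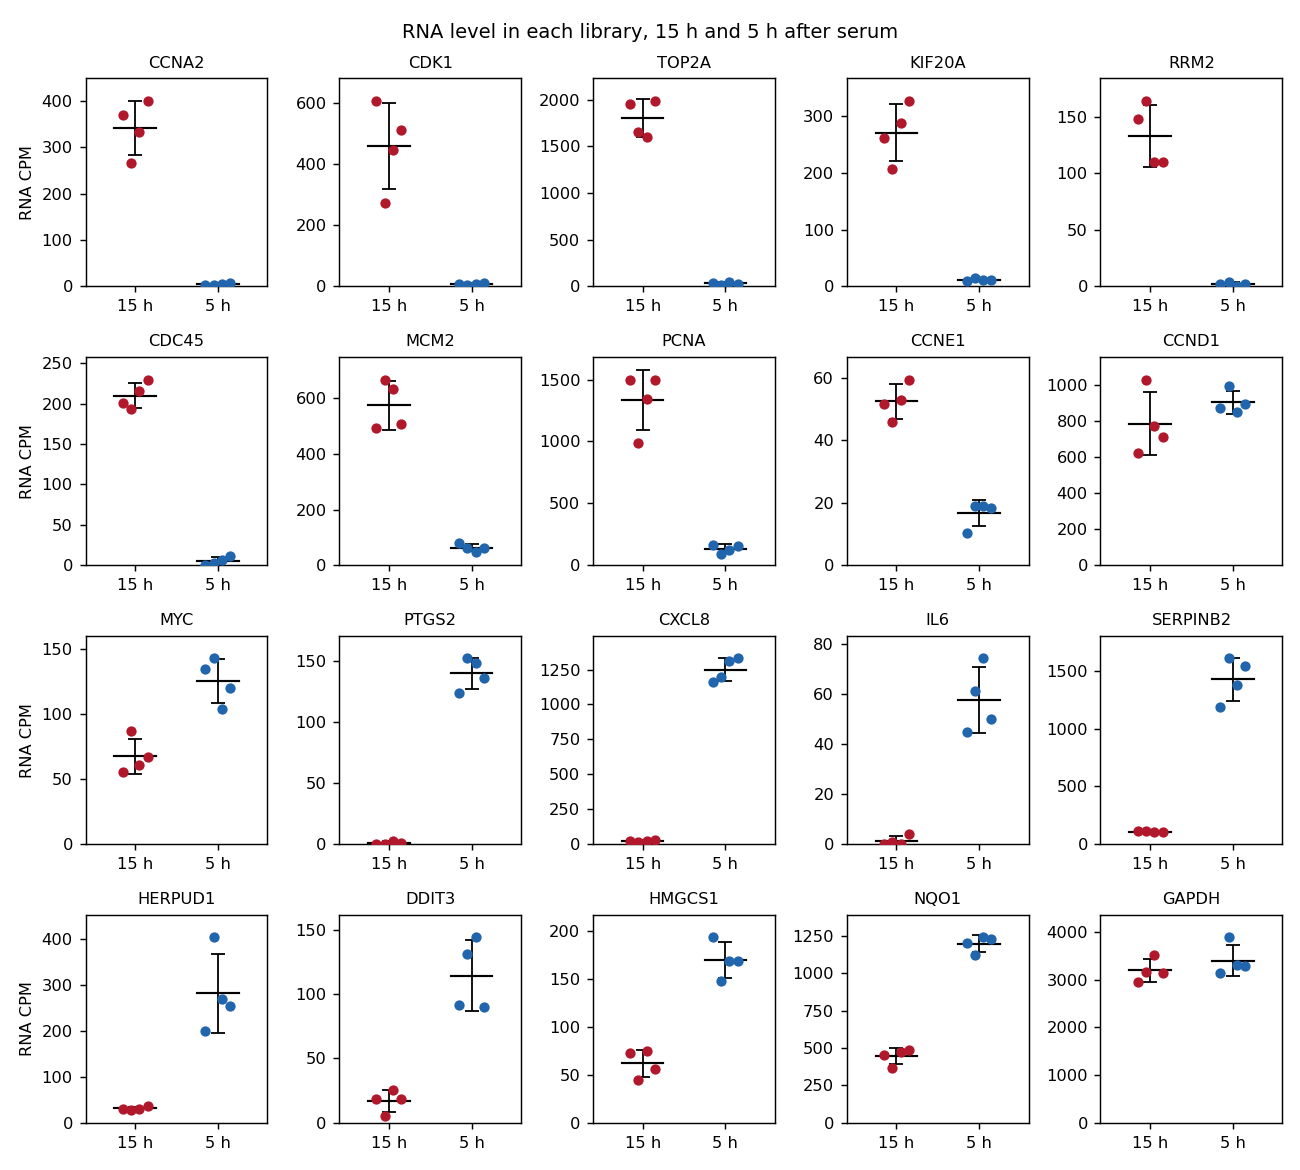
RNA level (vertical axis, scaled CPM, linear, from 0) in each of the 4 libraries at 15 h (red) and at 5 h (blue) for 20 genes, with the mean and SD as black bars. CCNA2, CDK1, TOP2A and KIF20A are near 0 at 5 h, PTGS2, CXCL8 and IL6 are near 0 at 15 h, and CCND1 and GAPDH overlap.

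The regulators upstream of these genes moved unevenly. CCND1, the D cyclin induced by growth factors, had 623, 1030, 771 and 712 CPM at 15 h, against 873, 995, 849 and 895 CPM at 5 h, and was not called (log2 change -0.21, edgeR adjusted p = 0.411). CCNE1, which drives entry into S phase, had 51.5, 45.8, 52.9 and 59.4 CPM at 15 h, against 10.4, 19.1, 18.8 and 18.4 CPM at 5 h, a 3.04-fold rise, and CCNE2 rose 4.78-fold. CDK2, the partner of cyclin E, had 138, 132, 130 and 130 CPM at 15 h, against 15.5, 15, 16.5 and 19.5 CPM at 5 h, a 7.88-fold rise. CDK6, a partner of cyclin D, was 1.69-fold lower, a call lost under 4 of 14 alternative settings. In all, 5 of 7 tested G1 cyclins and CDKs rose and 1 fell.

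E2F1, the activator of replication genes, had 153, 200, 204 and 200 CPM at 15 h, against 62.1, 35.1, 33 and 33.5 CPM at 5 h, a log2 change of 2.25 (SE 0.22, edgeR adjusted p = 4.08e-08), with replicate 1 the low library at 15 h and the high library at 5 h. RBL1, the RB relative p107, rose by 2.35 and TFDP1, the E2F partner, by 1.43, and 4 of 9 genes of the family rose in all. MYBL2, which encodes B-MYB, had 164, 365, 183 and 194 CPM at 15 h, against 5.18, 8.02, 2.35 and 9.74 CPM at 5 h, a log2 change of 5.09, and FOXM1 rose by 2.13. MYC fell 1.85-fold, with 55.7, 86.9, 60.7 and 66.7 CPM at 15 h, against 135, 143, 104 and 120 CPM at 5 h.

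The CDK inhibitors did not move as a group. CDKN1A, which encodes p21, had 76.7, 90.6, 108 and 80.2 CPM at 15 h, against 65.6, 105, 78.9 and 77.9 CPM at 5 h, and was not called (edgeR adjusted p = 0.718). CDKN2C, which encodes the CDK4 inhibitor p18, had 38.9, 32.7, 67.1 and 52.1 CPM at 15 h, against 1.73, 5.01, 5.89 and 3.25 CPM at 5 h, an 11-fold rise, CDKN3 rose 7.63-fold and CDKN2D 2.87-fold. CDKN1C, which encodes p57, fell 3.95-fold.

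The same fit placed these changes in time. From 5 to 10 h, 887 genes (10.1%) were called higher and 839 (9.56%) lower, and from 10 to 15 h 334 (3.81%) were called higher and 185 (2.11%) lower. Both steps share the 10 h libraries and each shares libraries with the whole comparison, so their values are set side by side only. Of 42 replication genes 41 were higher at 10 h than at 5 h (median 2.84) and 4 higher at 15 h than at 10 h (median 0.20). Of 32 kinesin and spindle genes 30 were higher at 10 h (median 2.31) and 31 rose again by 15 h (median 1.71). Of 43 histone genes 42 were higher at 10 h (median 2.91) and all 43 rose again by 15 h (median 2.13).

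Single genes showed both patterns. CDC6 averaged 7.8 CPM at 0 h, 365 CPM at 10 h and between 280 and 295 CPM in the 15 h libraries, and its step after 10 h was -0.35 (edgeR adjusted p = 0.28). MCM2, PCNA and E2F1 had steps of -0.13, 0.17 and -0.38 after 10 h, none called. KIF20A rose by 1.99 to 10 h and by 2.54 after it, TOP2A by 3.44 and 2.45, CCNB1 by 1.49 and 1.64, and FOXM1 was called in the second step (1.14, edgeR adjusted p = 0.0239) and not in the first (0.99, edgeR adjusted p = 0.0681). Mitotic RNA was also present before serum: KIF20A averaged 286 CPM at 0 h and 46.4 CPM at 10 h, and CCNB1 299 and 177 CPM, so 5 h was the low point of these genes. CDC6 and CCNE2 had no such high level at 0 h, with means of 7.8 and 1.92 CPM.

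**Figure D4:**
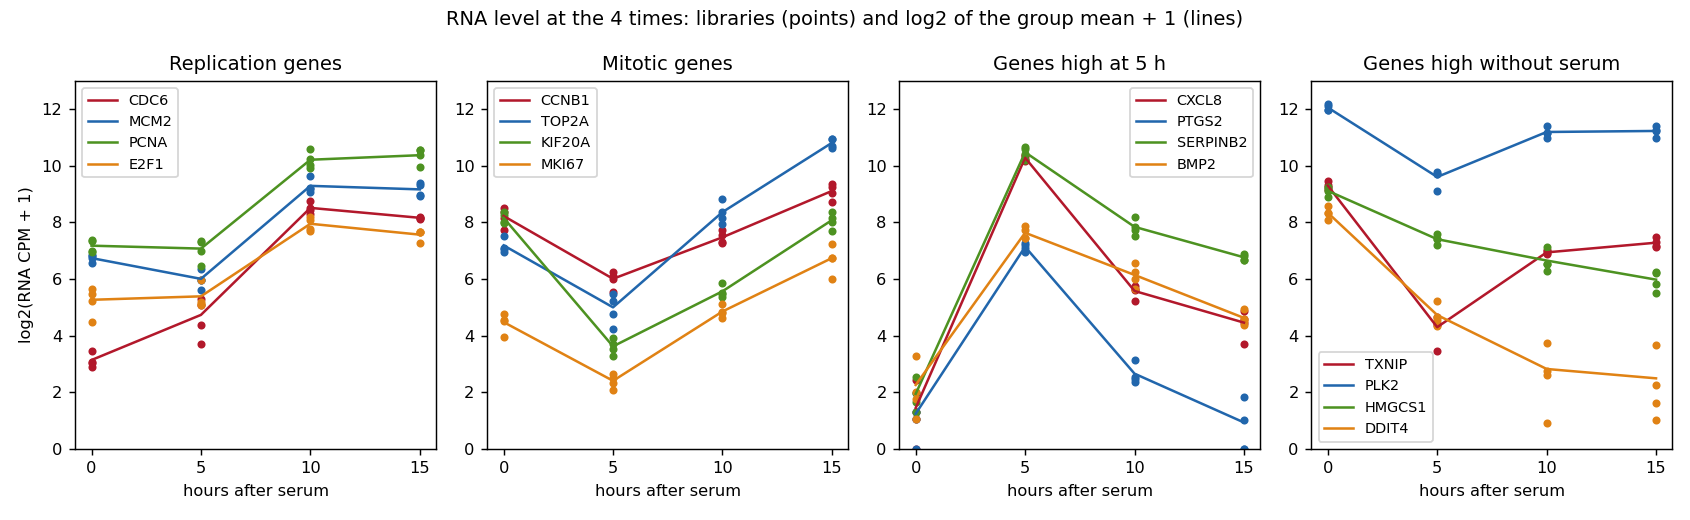
RNA level as log2(CPM + 1) (vertical axis) against hours after serum (horizontal axis) for 16 genes in 4 panels, with each library as a point and the line through the log2 of the group mean + 1. Replication genes are level after 10 h, mitotic genes are lowest at 5 h and still rising at 15 h, and genes high at 5 h, such as CXCL8, fall at both later times.

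The genes that fell were led by secreted and inflammatory mediators. PTGS2, the inducible cyclooxygenase, had 0, 0, 2.58 and 1.04 CPM at 15 h, against 124, 152, 148 and 136 CPM at 5 h. With 3 counts at 15 h and 476 at 5 h, its ratio was 0.00562 (95% exact interval 0.00116 to 0.0165, counting error only). CXCL8, the neutrophil chemokine interleukin 8, had 23.1, 12.1, 20.7 and 28.1 CPM at 15 h, against 1160, 1200, 1310 and 1330 CPM at 5 h, a log2 change of -5.89 (SE 0.22, edgeR adjusted p = 1.69e-15). IL6 had 0, 0.934, 0 and 4.17 CPM at 15 h, against 44.9, 61.2, 74.2 and 49.8 CPM at 5 h, a log2 change of -5.30. The lowest 5 h library was more than 10 times the highest 15 h library in each of these genes. They were picked from genes without overlap, so that they do not overlap is no separate result.

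All 9 tested chemokines and cytokines fell, with a median log2 change of -2.0, beside 17.7% of all genes tested, and 13 further members of the list had too few counts to test. IL33, an alarmin, fell by 3.67. Of 14 genes of prostaglandin synthesis, coagulation and plasminogen activation 10 fell and 1 rose. SERPINB2, an inhibitor of urokinase, had 116, 112, 102 and 102 CPM at 15 h, against 1190, 1610, 1380 and 1540 CPM at 5 h, a 13.2-fold fall, and THBD, the thrombin receptor thrombomodulin, fell 6.91-fold. SERPINE2, another protease inhibitor, was the member that rose, by 0.50 on the log2 scale. F3, which encodes tissue factor and is listed with YAP targets, had 694, 757, 625 and 769 CPM at 15 h, against 1470, 1530, 1600 and 1540 CPM at 5 h.

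The other large falls were of diverse genes. ITGA2, an integrin subunit that binds collagen, had 76.7, 59.8, 62 and 62.5 CPM at 15 h, against 662, 764, 838 and 829 CPM at 5 h, an 11.8-fold fall. GFPT2, an enzyme of hexosamine synthesis, fell 16.9-fold, G0S2, an inhibitor of fat breakdown, 10.5-fold, and HMOX1, the inducible heme oxygenase, 13.2-fold. SHC4 fell 19.7-fold, SH3TC1 15.8-fold, TMEM265 10.5-fold, and ERO1B, an oxidase of the endoplasmic reticulum, 10.4-fold. ANGPTL4, a secreted inhibitor of lipoprotein lipase, fell by 4.84 on the log2 scale, with 4 counts at 15 h and 117 at 5 h. HSD17B2, a steroid dehydrogenase, had 1 count at 15 h and 40 at 5 h, a ratio of 0.0223 (95% exact interval 0.000551 to 0.132).

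Subunits and feedback genes of serum-activated pathways were lower at 15 h. Of 13 NF-kB subunits and feedback genes 11 fell and none rose, with a median log2 change of -1.50: RELB by 2.65, BIRC3 by 2.53 and TNFAIP3, the A20 feedback inhibitor, by 1.88. BIRC3 had 9.45, 5.61, 12.9 and 8.33 CPM at 15 h, against 27.6, 58.2, 58.9 and 59.5 CPM at 5 h, with replicate 1 the low library at 5 h. Of 12 genes of ERK feedback and EGF receptor ligands 10 fell and none rose, with a median of -1.12, and 6 fell without replicate 4 at 15 h. A further 10 members of this list had too few counts to test. SPRY2, an inhibitor of receptor signalling, had 25.2, 26.2, 28.4 and 21.9 CPM at 15 h, against 128, 185, 171 and 169 CPM at 5 h, LIF fell by 2.23 and the ERK phosphatase gene DUSP5 by 2.16.

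Immediate-early transcription factors were lower at 15 h in part. Of 15 tested genes 5 fell and none rose, with a median of -0.26. Another 7 members had too few counts to test: FOS, FOSB, ATF3, EGR1, EGR3, KLF4 and NR4A1. JUNB had 15.8, 29, 21.9 and 19.8 CPM at 15 h, against 84.5, 167, 86 and 102 CPM at 5 h, a 5.08-fold fall, BHLHE40 fell 5.92-fold and MAFF 1.91-fold. FOSL1, an AP-1 subunit, had 12.6, 29.9, 18.1 and 12.5 CPM at 15 h, against 5.18, 26.1, 9.42 and 8.65 CPM at 5 h, and was not called (edgeR adjusted p = 0.383), with replicate 2 the highest library at both times. In footprints 12 of 20 tested genes of this list were called lower and 3 higher, against 36.1% and 34.8% of all genes tested.

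CXCL8 was the listed chemokine with an NF-kB site in the 250 bases before the start, and those bases are shown for that site. The sequence is from RefSeq on GRCh38.p14, chr4:73740319-73740568, plus strand, 5′ to 3′, with the NF-kB match in capitals.
CXCL8: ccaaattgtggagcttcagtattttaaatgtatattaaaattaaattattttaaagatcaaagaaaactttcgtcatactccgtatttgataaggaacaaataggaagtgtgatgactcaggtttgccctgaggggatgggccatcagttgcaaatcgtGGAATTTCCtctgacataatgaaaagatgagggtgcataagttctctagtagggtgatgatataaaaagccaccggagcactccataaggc
The match lies 91 to 83 bases before the start. In the window with the 50 bases after the start, NF-kB letters were found in 1 of 7 promoters of chemokines and cytokines. They were found in 36.4% of 11 promoters of NF-kB subunits and feedback genes and in 0.672% of the 7290 promoters of tested genes. Of 79 genes more than 4-fold lower 1.27% held them.

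Genes of endoplasmic reticulum folding fell. Of 25 tested, 18 were called lower and none higher, with a median log2 change of -1.02. HERPUD1, a factor of ER-associated degradation, had 30.5, 29, 31 and 36.5 CPM at 15 h, against 200, 403, 268 and 253 CPM at 5 h, an 8.88-fold fall. DNAJB9, an ER cochaperone, fell 7.28-fold. HSPA5, the chaperone BiP, had 75.6, 276, 92.9 and 86.4 CPM at 15 h, against 443, 969, 492 and 502 CPM at 5 h, a 4.5-fold fall, with replicate 2 the high library at both times.

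Genes of the ATF4 response to amino acid and ER stress fell in 8 of 12 cases and rose in 1, with a median of -1.39. DDIT3, which encodes CHOP, had 18.9, 5.61, 25.8 and 18.7 CPM at 15 h, against 91.4, 131, 144 and 89.8 CPM at 5 h, a 6.79-fold fall, NUPR1 fell 6.76-fold and DDIT4, an mTORC1 inhibitor, 5.84-fold. STC2 was the member that rose, 2.1-fold. Among 20 cytosolic aminoacyl-tRNA synthetases 5 fell, with CARS1 at -1.48, SARS1 at -1.02 and GARS1 at -0.89, and 1 rose, FARSB at 1.08. Amino acid transporters had 1 call in 11, SLC3A2 at -0.56, and serine and one-carbon genes 3 in 11: TYMS, MTHFD1 at 1.87, and MTHFD2 at -0.52. The calls of SLC3A2 and MTHFD2 were lost under 3 and 5 of 14 alternative settings.

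Sterol genes were lower at 15 h. Of 25 tested genes of cholesterol synthesis and uptake 16 fell and none rose, with a median of -1.09. HMGCS1, the second enzyme of the pathway, had 72.5, 44.9, 74.9 and 56.2 CPM at 15 h, against 193, 148, 168 and 168 CPM at 5 h, a log2 change of -1.45 (SE 0.19, edgeR adjusted p = 1.99e-06), and its mean at 0 h was 555 CPM. TM7SF2 fell by 2.51, MVD by 2.09 and INSIG1, the sterol sensor that retains SCAP, by 1.86. In fatty acid synthesis 3 of 12 fell, the desaturases SCD (-2.01) and FADS2 (-1.68) and ME1 (-1.41), and 1 rose, the elongase ELOVL6 (1.22).

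Autophagy, oxidative stress and interferon genes were lower at 15 h in part. Of 19 autophagy and lysosome genes 11 fell (7 without replicate 2 at 5 h) and 1 rose, with a median of -0.52: SQSTM1, the receptor p62, fell 2.86-fold, GABARAP 2.05-fold and HEXA 1.9-fold, and GLA rose 1.68-fold. Of 15 NRF2 and oxidative stress genes 6 fell and 1 rose. NQO1, a quinone reductase, had 454, 367, 474 and 487 CPM at 15 h, against 1200, 1120, 1240 and 1230 CPM at 5 h, FTL fell 2.42-fold, and TFRC, the transferrin receptor, rose 1.67-fold. Of 21 interferon-stimulated genes 8 fell and 2 rose, with a median of -0.61. GBP2 had 9.45, 7.48, 10.3 and 7.29 CPM at 15 h, against 69, 87.2, 77.7 and 103 CPM at 5 h, GBP1 fell 4.79-fold and IRF9 3.54-fold, and OAS3 rose 2-fold, a call lost under 4 of 14 alternative settings.

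Growth factor and matrix genes moved in both directions, and the actin genes that were called fell. BMP2, a secreted ligand, had 22.1, 29.9, 23.2 and 19.8 CPM at 15 h, against 174, 232, 172 and 213 CPM at 5 h, an 8.27-fold fall, while BMP4 rose 3.73-fold and TGFB2 2.25-fold. SMAD7, the feedback inhibitor of the pathway, fell 2.71-fold and the BMP antagonist gene GREM1 2.66-fold, and of 16 tested genes of the list 6 fell and 2 rose. Of 22 collagen and matrix genes 5 fell (22.7%) and 4 rose (18.2%), against 17.7% and 14.8% of all genes tested. THBS1, a matricellular protein, had 3240, 5500, 3170 and 3240 CPM at 15 h, against 1920, 2410, 1570 and 1790 CPM at 5 h, with replicate 2 the high library at 15 h, and LAMB1 rose 1.79-fold. TNC, P4HA2 and LAMA4 fell 2.46-fold, 1.87-fold and 1.6-fold. With no filter on low counts, and without replicate 1 or 4 at 15 h or 2 at 5 h, 3 matrix genes were called lower.

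Of 7 ADAMTS and MMP genes ADAMTS15 rose 5.99-fold and ADAMTS12 fell 2.04-fold. Of 20 genes of SRF and the actin cytoskeleton 7 fell (3 with no filter on low counts, and without replicate 4 at 15 h or 2 at 5 h) and none rose. ZYX (2.64-fold), CALD1 (2.16-fold) and CNN2 (1.91-fold) were among those that fell. In footprints 16 of 21 genes of this list were called lower and 1 higher, with a median of -0.41, where 36.1% of all genes tested were called lower. ACTB, an SRF target itself, had 1410, 2400, 1640 and 1250 CPM at 15 h, against 1330, 2270, 1220 and 1260 CPM at 5 h, and was not called. Of 19 YAP and TEAD targets F3 and ASAP1 fell and DOCK5 rose, and 4 rose without replicate 1 at 15 h. The call of ASAP1 was lost under 9 of 14 alternative settings, and that of ZYX under some of them.

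Changes in the protein synthesis machinery were mostly small, and the ribosomal protein genes that were called all fell. Of 62 tested cytosolic ribosomal protein genes 31 fell (50%, against 17.7% of all genes tested) and none rose. Their median was -0.40, against -0.10 for all genes tested. RPS9 had 291, 309, 411 and 375 CPM at 15 h, against 462, 666, 551 and 539 CPM at 5 h (1.6-fold), RPL29 fell 1.57-fold, RPL15 1.52-fold and RPLP0 1.3-fold. The calls of RPL29, RPL15 and RPLP0 were each lost under at least 1 of 14 alternative settings. The next counts are of ribosomal protein genes called lower. The count was 17, 8 and 11 without replicates 1, 2 and 4 at 15 h and 19, 13 and 12 without replicates 1, 2 and 3 at 5 h, and the list's median lay between -0.48 and -0.23 in the 14 alternatives. Of 31 translation factors 7 were lower (22.6%) and 4 higher (12.9%), against 17.7% and 14.8% of all genes tested. There were 8 higher without replicate 1 at 15 h, 4 lower without replicate 2 at 15 h, and 3 lower with no filter on low counts. EEF1A1 was at -0.70, EIF4A2 at -0.71, a call lost under 4 of 14 alternative settings, and EIF4B at -0.61. EIF4EBP1, an inhibitor of cap-dependent initiation, was at 1.28 and EIF4A3 at 0.59.

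Of 43 ribosome biogenesis genes 8 were higher and 4 lower, with a median of 0.10, and these shares are near or below those of all genes tested. Without replicate 1 at 5 h 4 were higher, and without replicate 4 at 15 h 2 were lower. POLR1E (1.01), LYAR (0.83) and DDX52 (0.76) rose, and NIP7 (-0.93) and POLR1C (-0.69) fell. The call of DDX52 was lost without replicate 1 at 5 h and without replicate 2 at 5 h. NIP7 had 132, 97.2, 115 and 116 CPM at 15 h, against 167, 374, 147 and 180 CPM at 5 h, where replicate 2 was the high library. Splicing factors and nucleoporins rose in 27 of 38 cases, with a median of 0.87 and none called lower. KPNA2, an importin, rose by 2.89, and the nuclear pore genes NUP107 and NUP205 by 2.29 and 2.0.

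Chaperones and the proteasome changed by less than 2-fold in most cases. Of 22 heat shock and CCT genes 10 rose and 2 fell, with a median of 0.33. HSPA4L rose 3.48-fold, HSP90AA1 2.37-fold and DNAJB1 1.88-fold, and HSPA9 and HSPA8 fell 1.4-fold and 1.38-fold. The call of HSPA8 was lost under some of 14 alternative settings. The 8 subunits of the CCT chaperonin, which folds actin and tubulin, had a median of 0.48, and 5 of them were called. Of 29 proteasome subunits 4 rose (13.8%) and 2 fell (6.9%), against 14.8% and 17.7% of all genes tested. PSMD2, PSMD14 and PSMC3 were 1.66-fold, 1.47-fold and 1.44-fold higher, and PSMB7 and PSMB4 1.33-fold and 1.28-fold lower. The calls of PSMB4, PSMD14 and PSMB7 were lost under 11, 7 and 3 of 14 alternative settings. In edgeR 0 or 1 subunit was called lower with no filter on low counts and without any 1 library other than replicate 3 at 15 h.

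Energy metabolism showed a few large changes within a level group. Of 26 genes of glycolysis and hypoxia 5 rose (19.2%) and 6 fell (23.1%), against 14.8% and 17.7% of all genes tested. The number that rose was 3, 3 and 2 without replicate 3 at 15 h and replicates 1 and 4 at 5 h. LDHA rose 1.75-fold and ADM, a vasodilator peptide, 3.92-fold, while NDRG1 fell 8.98-fold and VEGFA, the endothelial growth factor, had 52.5, 60.7, 49.1 and 50 CPM at 15 h, against 167, 257, 226 and 202 CPM at 5 h. GAPDH had 2950, 3160, 3520 and 3150 CPM at 15 h, against 3140, 3890, 3300 and 3280 CPM at 5 h, and was not called. Of 49 nuclear-encoded respiratory chain genes 12 fell (24.5%) and 1 rose (2.04%), with a median of -0.18. The number that fell was 3 without replicate 2 at 15 h or 1 at 5 h, and 6 without replicate 4 at 15 h or 3 at 5 h. Footprints of this list went the other way, with 21 of 49 genes called higher and 8 lower and a median of 0.09. Over all genes tested in footprints 34.8% were called higher and 36.1% lower. In RNA COX6C, COX5B and UQCRB were 1.75-fold, 1.72-fold and 1.66-fold lower and ATP5MC1 1.46-fold higher. The calls of UQCRB and ATP5MC1 were each lost under some of 14 alternative settings. The 12 tested mitochondrially encoded mRNAs had 1 call, MT-CO1 at -0.47, which was lost under 11 of 14 alternative settings, and their share of counts was 0.0622 ± 0.00331% at 15 h and 0.0727 ± 0.00704% at 5 h (SD, n = 4 each, 2-sided exact permutation test, p = 0.0571).

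Some genes tied to quiescence fell. Of 18 quiescence and FOXO targets 7 fell and 1 rose. TCP11L2 fell 7.81-fold and YPEL3 3.78-fold, and both had been higher at 0 h, with means of 105 and 44.4 CPM. TXNIP, a thioredoxin-binding protein repressed by growth factors, rose: it had 180, 157, 142 and 141 CPM at 15 h, against 24.2, 10, 20 and 20.6 CPM at 5 h, an 8.48-fold rise, and its mean was 631 CPM at 0 h. PLK2, a p53 target, had 2470, 2030, 2410 and 2730 CPM at 15 h, against 888, 557, 830 and 846 CPM at 5 h, and DDB2, a sensor of UV damage, rose 2.45-fold. SESN2, FDXR and TP53I3 fell 3.4-fold, 2.52-fold and 1.78-fold. Of 22 p53 targets 7 fell (31.8%, against 17.7% of all genes tested) and 3 rose (13.6%, against 14.8%). In DESeq2, and without replicate 1, 2 or 4 at 15 h or 2 or 3 at 5 h, 4 fell, and 5 rose without replicate 2 at 15 h or 3 at 5 h.

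In the circadian clock, NR1D2, a repressor of BMAL1, and BMAL1 itself moved in opposite directions. NR1D2 had 83, 72.9, 83.9 and 98.9 CPM at 15 h, against 12.1, 17, 8.24 and 11.9 CPM at 5 h, a log2 change of 2.75. BMAL1 had 30.5, 18.7, 21.9 and 22.9 CPM at 15 h, against 72.5, 47.1, 71.8 and 75.7 CPM at 5 h, a log2 change of -1.50. Of 25 cilium and Hedgehog genes 6 fell (24%, against 17.7% of all genes tested) and 2 rose (8%, against 14.8%). IFT27, IFT140 and BBS9 were each about -1.27 on the log2 scale. RPGRIP1L (1.62-fold) and HHIP (1.45-fold) rose, calls lost under 1 and 4 of 14 alternative settings. In footprints 12 of 30 tested cilium and Hedgehog genes were called higher and 7 lower, against 34.8% and 36.1% of all genes tested.

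Promoter letters were also counted for all called genes. Of 8775 tested genes 7290 (83.1%) matched a promoter by symbol, and the window searched ran from 250 bases before to 50 bases after the start. E2F sites (TTTCCCGC, TTTGGCGC, TTTCGCGC or TTTGCCGC on either strand) were found in 13% of 1084 genes called higher and 3.21% of 1276 called lower, against 6.01% of all tested. CHR elements (TTTGAA or TTCGAA on either strand) were found in 21.5% of genes called higher, 7.21% of those called lower and 11.2% of all tested. A CHR element together with a CCAAT box (CCAAT on either strand) was found in 13.4%, 2.35% and 5.08% of the same 3 sets, and in 67.9% of 28 kinesin and spindle promoters. AP-1 sites (TGAGTCA on either strand) were found in 1.66%, 4.31% and 2.73%, and in 8.86% of 79 genes more than 4-fold lower. The octamer ATGCAAAT and NF-kB sites (GGACTTTCC or GGAATTTCC), on either strand, with no one of these motifs contained in another, were found in 2.95% and 0.461% of genes called higher and 1.41% and 1.33% of genes called lower. CCAAT boxes stood in 48.5% of genes called higher and 35.7% of those called lower, against 37.4% of all tested. By list, they stood in 89.7% of 39 histone promoters and 75% of 28 kinesin and spindle promoters. Among lists that fell, the share was 87% of 23 promoters of ER folding genes and 73.7% of 19 of cholesterol genes. These are counts of letters, with no test.

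Ribosome footprints were counted in other libraries of the same times. Of 10959 genes tested 3811 (34.8%) were called higher and 3951 (36.1%) lower at 15 h. Of the 1297 genes called higher in RNA and tested in footprints 1275 (98.3%) were called higher in footprints, against 38.3% of all genes tested in both assays. Of 1544 called lower in RNA 1396 (90.4%) were called lower in footprints, against 36.1%. Seen from footprints, 38.1% of 3343 genes higher and 44.3% of 3150 genes lower were called in RNA. The RNA libraries were several times shallower, and the spread between replicates (biological coefficient of variation) was 0.185 for RNA and 0.0547 for footprints.

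A few genes were called in opposite directions, and these were picked after their values were seen. BMAL2 (RNA 0.45, footprints -0.25) and NOP56 (RNA 0.37, footprints -0.20) were higher in RNA and lower in footprints, and 16 genes were lower in RNA and higher in footprints. Among the lists, all 44 tested histone genes, all 42 replication genes and all 34 kinesin and spindle genes were called higher in footprints, with medians of 5.66, 3.19 and 5.61. TOP2A footprints were at 2690, 3110, 2710 and 2800 CPM at 15 h, against 39, 26.5, 24.9 and 25.6 CPM at 5 h. CXCL8 footprints were at 12.7, 8, 10.1 and 6.5 CPM at 15 h, against 288, 437, 432 and 457 CPM at 5 h. In ribosomal protein genes 29 of 62 were lower and 2 higher in footprints, with a median of -0.14. Proteasome subunits, of which 4 of 29 rose in RNA, were called higher in footprints in 23 of 29 cases. Calls were more frequent in footprints over all genes as well. A test of the footprint change against the RNA change, described next, called 1 of the 29 higher, with a median log2 difference of 0.19.

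The footprint change differed from the RNA change in few genes. The interaction test called 90 of 8736 genes (1.03%) higher and 23 (0.263%) lower, meaning that footprints rose more or fell less than RNA in the first set, and the reverse in the second. The test used 1 spread per gene for both assays. Its common value was 0.102, against 0.185 in RNA and 0.0547 in footprints alone. The spread of RNA is thus understated, and SEs and adjusted p-values of the interaction may be too small. The numbers depended on single libraries: 47 and 57 were higher without replicates 3 and 4 at 5 h, and 9, 10, 15 and 10 were lower without replicates 2, 3 and 4 at 15 h and replicate 1 at 5 h. SKA3, a subunit of the kinetochore SKA complex, had footprints of 84, 79.2, 79.7 and 71.6 CPM at 15 h, against 1.45, 1.82, 1.27 and 0.761 CPM at 5 h. Its RNA was at 56.7, 42, 49.1 and 40.6 CPM at 15 h, against 6.9, 13, 10.6 and 16.2 CPM at 5 h, so the footprint change exceeded the RNA change by 3.86 on the log2 scale (SE 0.42, edgeR adjusted p = 2.16e-07). At 5 h its RNA was counted in every library while its footprints were near 1 CPM.

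CIT, the citron kinase of cytokinesis, had footprints of 250, 290, 268 and 266 CPM at 15 h, against 4.35, 3.97, 3.8 and 5.07 CPM at 5 h, and RNA of 96.6, 121, 71 and 81.2 CPM at 15 h, against 6.9, 15, 15.3 and 14.1 CPM at 5 h. The excess was 3.05 on the log2 scale. CEP128, a centriole protein gene, had an excess of 3.65, NEIL3, a DNA glycosylase gene, 2.89, KIF14, a kinesin of cytokinesis, 2.78, and FANCB, a Fanconi core gene, 2.70. These 6 kept their calls under all 14 alternative settings. By list, 7 of 32 kinesin and spindle genes, 4 of 33 kinetochore genes, 4 of 19 G2/M genes and 3 of 23 recombination genes were called higher, and none of 43 histone genes.

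**Figure D5:**
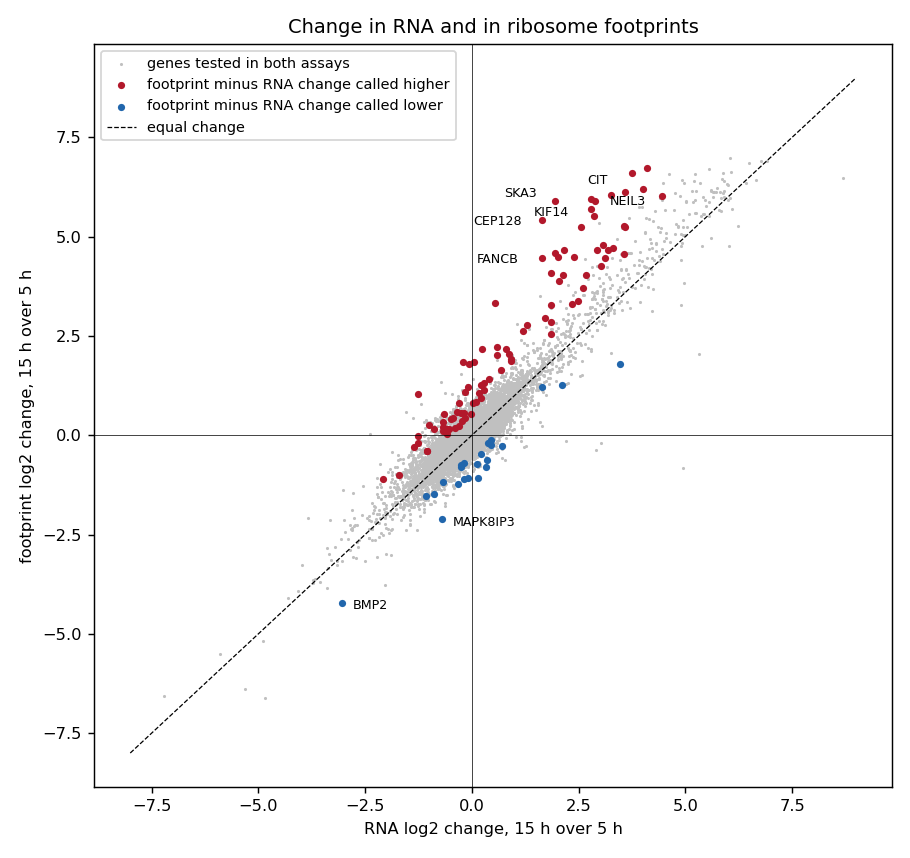
Footprint log2 change (vertical axis) against RNA log2 change (horizontal axis), both 15 h over 5 h, for the 8736 genes tested in both assays (grey), with the 90 genes whose footprint change exceeded the RNA change in red and the 23 where it was below it in blue. The dashed line marks equal change. Most genes lie near the line, and the labelled red points include SKA3, CIT, NEIL3 and KIF14.

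Among the genes where the footprint change was below the RNA change, BMP2 had footprints of 13.6, 14.8, 10.3 and 15.3 CPM at 15 h, against 221, 309, 252 and 227 CPM at 5 h, a log2 change of -4.23, against -3.05 in RNA. PLXND1, a semaphorin receptor gene, was at -0.80 in footprints and 0.33 in RNA, MGLL, a monoglyceride lipase gene, at -1.10 and -0.19, and MAPK8IP3, a JNK scaffold gene, at -2.11 and -0.71. MT-CO2, a mitochondrially encoded oxidase subunit, was at -1.08 in footprints and 0.14 in RNA, and PIGW, of GPI anchor synthesis, at -0.27 and 0.71. Each of these 6 lost its call under at least 1 of 14 alternative settings, from 1 for PLXND1 to 8 for MT-CO2.

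Marker genes of the labelled cell type and of other cells were counted in the same libraries. The 16 retinal pigment epithelium markers in the table summed to between 1070 and 1320 CPM at 15 h. At 5 h they summed to between 1580 and 2260 CPM. TTR had no count, and 9 of the markers, among them TTR, RPE65, BEST1 and RLBP1, had too few counts to be tested. Of 7 tested none was called higher and 3 were called lower: RDH5 (-1.86), KRT18 (-0.71) and KRT8 (-0.51). MERTK, MITF, OTX2 and TJP1 were not called, and the highest log2 change in the list was 1.31. In footprints at 5 h KRT18 had 843 to 950 CPM and KRT8 670 to 790 CPM, against 5.07 to 7.52 CPM for RDH5. The part of the keratin genes KRT18 and KRT8 in the RNA sums was not tested. The lower sum at 15 h is therefore not read as a change of cell type. The 11 fibroblast and endothelial markers summed to between 270 and 360 CPM at 15 h and between 348 and 439 CPM at 5 h, with PECAM1 at 0. PDGFRA and PDGFRB fell by 2.34 and 1.91 and THY1 rose by 0.44. The 9 blood cell markers summed to between 16.7 and 18.7 CPM at 15 h and between 17.7 and 22.4 CPM at 5 h, and CD3E, HBA1 and HBB were at 0 in all 8 libraries. The part of these levels in the results above was not tested. TBP had 14.7, 18.7, 16.8 and 18.7 CPM at 15 h, against 19, 19.1, 11.8 and 17.3 CPM at 5 h.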

How the data were processed

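RNA-seq and Ribo-seq libraries of RPE-1 cells were aligned with STAR 2.5.4a to GRCh38 and counted with featureCounts 1.5.1, per the submitters' processing notes. The authors deposited raw counts per gene for 19023 genes, of which 18572 matched a symbol. Handling of molecular identifiers and strand is not given in the sources used here. Library totals ran from 595851 to 1107470 counts for RNA.

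Counts were tested with edgeR 4.0.16 in R 4.3.3 (limma 3.58.1), with genes filtered by filterByExpr, TMM factors, a robust quasi-likelihood fit over the 16 libraries of an assay and Benjamini-Hochberg adjustment over all genes tested. The difference between footprint and RNA change was an interaction term over 32 libraries, with 1 spread per gene shared by both assays. SE is the absolute log2 change over the square root of F. Intervals of ratios are exact at 95% and cover counting error only. The alternatives were DESeq2 1.42.0, DESeq size factors, library totals, no filter, only the compared libraries, a replicate block and leaving out each library.

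Named genes were a fixed set, the 15 largest called rises and falls (at least 10 CPM in a group and no overlap), per list up to 3 called members in the direction with more calls and up to 2 in the other, the 6 largest interaction calls each way (at least 10 CPM in both assays), and the promoter genes. Other genes named, such as complex members and exceptions, were picked after their values were seen. The comparison, its gene lists and fixed genes were chosen with earlier results of these data known, and complexes were grouped after the values were seen. Promoters came from RefSeq. The procedure was tested on simulated data. Some items are not reported here.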

Additional observations from a re-analysis of the deposited data

Results flagged for a closer look

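In 44 of 444 groups of 4 libraries, 1 library lay far from the other 3 by the gap between it and its nearest neighbour relative to the range. Chance flags about 1 in 20 groups. The values below are RNA levels in CPM.

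Replicate 2 at 15 h was the high library for THBS1 (5500), SERPINE2 (1020), STC2 (780), MYBL2 (365), HSPA5 (276), KIFC1 (261), SH3TC1 (2.8) and HSD17B2 (0.934), and the low library for H2BC17 (1920), H2BC3 (809), ORC6 (146) and DDX52 (82.2). Replicate 1 at 15 h was high for ITGA2 (76.7), ME1 (29.4) and TMEM265 (4.2) and low for E2F1 (153). Replicate 3 at 15 h was high for SESN2 (7.75), and replicate 4 at 15 h was high for GABARAP (67.7) and low for ENSG00000274267 (5680).

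Replicate 2 at 5 h was high for LMNA (2520), ACTB (2270), GFPT2 (1260), HSPA5 (969), CNN2 (798), SQSTM1 (701), NIP7 (374) and MGLL (92.3), and low for BMAL1 (47.1) and PIGW (12). Replicate 1 at 5 h was high for PAICS (74.2), E2F1 (62.1), IRF9 (51.8), EXO1 (19), NCAPH (8.63) and PIMREG (1.73), and low for BIRC3 (27.6), CCNE1 (10.4) and CIT (6.9). Replicate 3 at 5 h was high for CALD1 (536) and low for SARS1 (802), STC2 (260), GMPS (113), ASAP1 (70.6) and YPEL3 (3.53). HSPA5 was high in replicate 2 at both times. The reason that single libraries stood apart was not tested.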

How the results depend on the processing

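Counts of genes called in RNA and in footprints stayed within 1.5 times of the main counts under all 14 alternatives. Genes called higher in RNA ran from 1177 to 1434 and lower from 1070 to 1375 when 1 library was left out, and were 1400 and 1259 in DESeq2. The interaction calls moved more: 166 genes higher and 75 lower in DESeq2, 235 higher with library totals (median log2 change 0.118), and 47 to 98 higher and 9 to 21 lower when 1 library was left out. The cause was not tested. Of 210 called named genes 182 kept call and sign in every alternative and 28 lost the call in at least 1, and 0 reversed.

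The replicate numbers were not taken to pair the samples, since the labels name no shared source and not every same-number pair correlated above 0.1. Deviations from the group means correlated at 0.155, 0.499, -0.023 and 0.161 between 15 h and 5 h libraries with the same number, and not every library correlated best with its own number. With the replicate block 1615 genes were called higher and 2048 lower in RNA, 3833 and 3959 in footprints, 101 and 30 in the interaction, and 51 ribosomal protein genes were lower. The histone share difference of 8.27 percentage points had p = 0.125 by exact sign flips within numbers, the smallest that 4 pairs can give.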
